A study of Homo sapiens with 30 samples.

Results

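The comparison described here set U2OS cells that carried an NFBD1 shRNA and a p53 shRNA against U2OS cells that carried the NFBD1 shRNA without the p53 shRNA, both after 5 Gy of ionizing radiation. Its members are 6 of the 30 arrays of the series, replicates 1 to 3 of each group, taken by sample title, and the genes with a named probe whose detection p-value was under 0.01 on at least 3 arrays, which left 12419 genes. U2OS is a human osteosarcoma line that is known to keep functional p53. A short hairpin RNA (shRNA) is processed in the cell into a small RNA that leads to degradation of a matching transcript, and here the hairpins were delivered with pSIREN retroviruses.

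The cells were irradiated 2 days after infection with a caesium source, and total RNA was taken 4 h later, amplified, labelled with biotin and read on Illumina bead arrays. The groups of the first experiment are the NFBD1 and p53 shRNAs together, the NFBD1 shRNA (hairpin b), the p53 shRNA and a control shRNA, each with 3 arrays at 5 Gy and 3 arrays at 0 Gy (mock irradiation). Both groups compared here therefore carry the NFBD1 hairpin and both were irradiated, and they differ by 1 p53 hairpin, so that loss of p53 and any other effect of that hairpin cannot be told apart. The p-values measure the spread between replicate arrays, pooled over the 8 groups of the first experiment. The labels do not say whether replicates were separate infections, so that spread may be technical.

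p53 is a transcription factor that is stabilised after DNA breaks, when kinases such as ATM and CHK2 modify it and its inhibitor MDM2. It then raises the transcription of genes for cell cycle arrest, apoptosis, DNA repair, metabolism and its own feedback control. NFBD1, the product of MDC1, binds phosphorylated histone H2AX beside DNA breaks and gathers repair and signalling proteins there.

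On the 6 arrays, 36.41% to 38.76% of the probes were detected in cells with both hairpins and 34.06% to 38.54% in cells with the NFBD1 hairpin alone, and the lowest share was on replicate 1 of the NFBD1 shRNA group. Correlations of log2 intensity between arrays of the experiment ran from 0.975 upwards, and the lowest joined that array and replicate 3 with both hairpins. MDC1 had log2 intensities of 7.24, 7.80 and 7.52 with both hairpins and 7.09, 7.10 and 7.23 with the NFBD1 hairpin alone. Its group means were 8.70 with the p53 shRNA alone and 8.98 with the control shRNA at 5 Gy, so both groups with the NFBD1 hairpin lay below them. The MDC1 difference between the 2 groups compared here was 0.38 ± 0.24 on the log2 scale (SE, n = 3 each, limma adjusted p = 0.721). All 3 arrays with both hairpins lay above all 3 with the NFBD1 hairpin alone, the nearest at 7.24 and 7.23. That the MDC1 difference did not pass does not show equal depletion, and NFBD1 protein was not measured on these arrays. The mesenchymal markers LGALS1 and COL1A1 averaged 13.78 and 10.67 in cells with both hairpins and 13.76 and 10.75 in cells with the NFBD1 hairpin. The osteoblast marker IBSP was far lower, at 4.78, 5.40 and 4.79 with both hairpins and 4.57, 4.64 and 4.66 with the NFBD1 hairpin. Of 18 mesenchymal and osteoblast markers, 14 were tested and 13 were detected on all 6 arrays. Of 18 blood cell markers, 8 were tested and 2 were detected on all 6 arrays. PTPRC, the common antigen of white blood cells, was not among the genes tested. Also detected on all 6 arrays were 6 of 10 tested epithelial markers, EPCAM and KRT18 among them, and 9 of 10 tested neural and HEK293-type markers. Detection therefore does not single out the mesenchymal list.

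Most genes called for the p53 shRNA in irradiated NFBD1-depleted cells were lower, and the 5 largest falls among the called genes were in known p53 targets. With limma, 45 genes were lower and 4 were higher in cells with both hairpins at an adjusted p under 0.05, which together is 0.395% of the genes tested (0.362% lower and 0.0322% higher). The falls ran between 1.45-fold and 4.55-fold, led by GDF15, CDKN1A, TP53INP1, SESN1 and MDM2. The RNA came from whole cultures, so fewer cells with a transcript and less of it per cell cannot be told apart. Of the 45 lower genes, 25 stood on 6 lists of p53 targets, of which 108 genes were tested, and 20 did not. The lists share no gene, so the 20 may include p53 targets that were placed on another list or on none. The arrays of the 2 groups did not overlap in any of the 49 called genes, as was so for 9.49% of all genes tested. Of all genes tested, 497 were lower and 682 were higher without overlap.

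A total of 1000 genes (8.05%) had an unadjusted p under 0.05. The replicate number as a block raised the calls to 124 genes (0.998% of those tested), 34 higher (0.274%) and 90 lower (0.725%). A block for the chip raised them to 108 genes (0.87%), 27 higher (0.217%) and 81 lower (0.652%), and in each of these fits all 49 genes were called. Without 1 array the count lay between 18 (without replicate 2 of the cells with both hairpins) and 45 (without replicate 3 of the same group). It was 25 without replicate 1 of that group, and 28, 26 and 33 without replicates 1, 2 and 3 of the NFBD1 shRNA group.

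**Figure D1:**
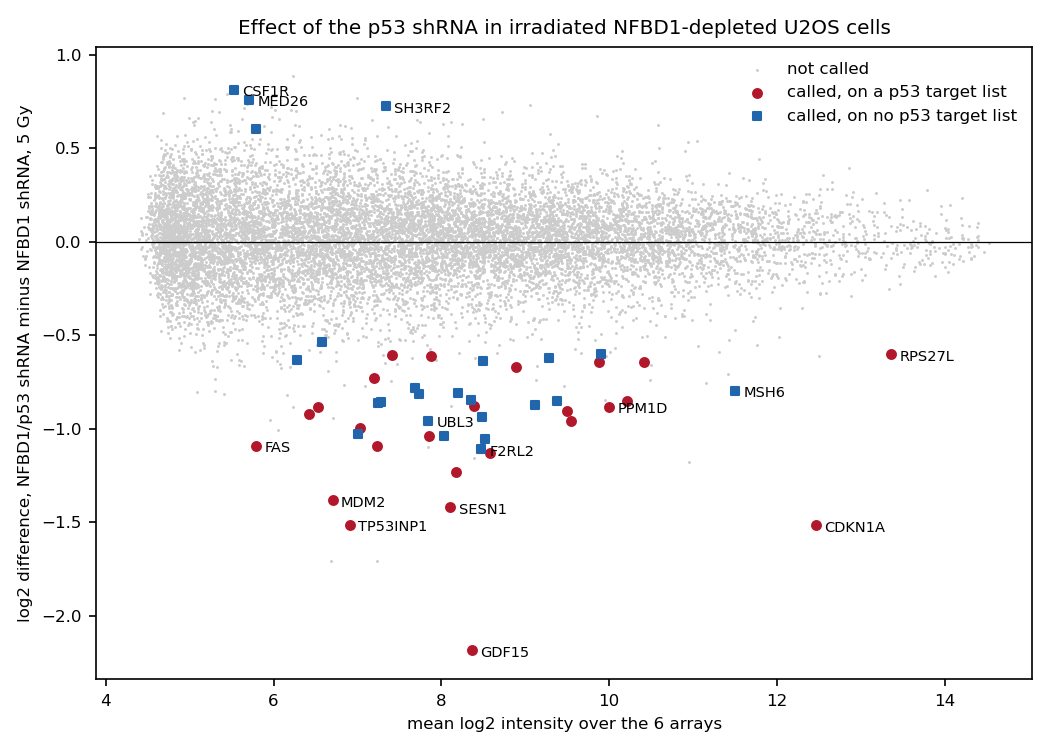
Log2 difference (NFBD1 and p53 shRNAs minus NFBD1 shRNA, 5 Gy) against the mean log2 intensity over the 6 arrays for 12419 genes, with the 49 called genes in colour. The called genes lie mostly below 0, with GDF15 at -2.19 and CDKN1A at -1.52, and 4 lie above 0.

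Feedback genes of p53 were among the clearest falls, with 5 of 12 tested list members lower, 0 higher and a median log2 difference of -0.49, against 0.018 over all genes. MDM2, the ubiquitin ligase that marks p53 for degradation, had log2 intensities of 6.28, 5.84 and 5.93 with both hairpins, against 7.21, 7.59 and 7.39 with the NFBD1 hairpin. All 3 arrays with both hairpins were lower than all 3 others, and the fall was 2.61-fold (log2 difference -1.38 ± 0.22, SE, limma adjusted p = 0.00246). PPM1D, the phosphatase WIP1 that removes damage-induced phosphates from p53 and from other proteins of the response, had 9.52, 9.51 and 9.65 with both hairpins and 10.39, 10.49 and 10.45 with the NFBD1 hairpin. The spread within each PPM1D group was far smaller than the gap between them, a fall of 1.85-fold (adjusted p = 0.000586). TP53INP1, a nuclear protein that promotes p53 activity under stress, had 6.07, 5.98 and 6.42, against 7.55, 7.89 and 7.56. It fell 2.86-fold (log2 difference -1.51 ± 0.28, adjusted p = 0.00901), and a further probe of the gene moved the same way.

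TRIAP1, which is known to restrain apoptosis rather than to regulate p53, had 9.46, 9.62 and 9.57 with both hairpins and 10.18, 10.26 and 10.16 with the NFBD1 hairpin (1.56-fold lower). FBXW7, the substrate-binding subunit of a ubiquitin ligase for cyclin E and MYC, had 8.24, 7.60 and 8.0, against 8.91, 8.79 and 8.79 (1.84-fold lower). Of 2 other detected FBXW7 probes, 1 moved the opposite way, and the call was lost when the gene's probes were averaged. ZMAT3 and CCNG1, also on this list, did not pass, with log2 differences of -0.59 and -0.38.

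**Figure D2:**
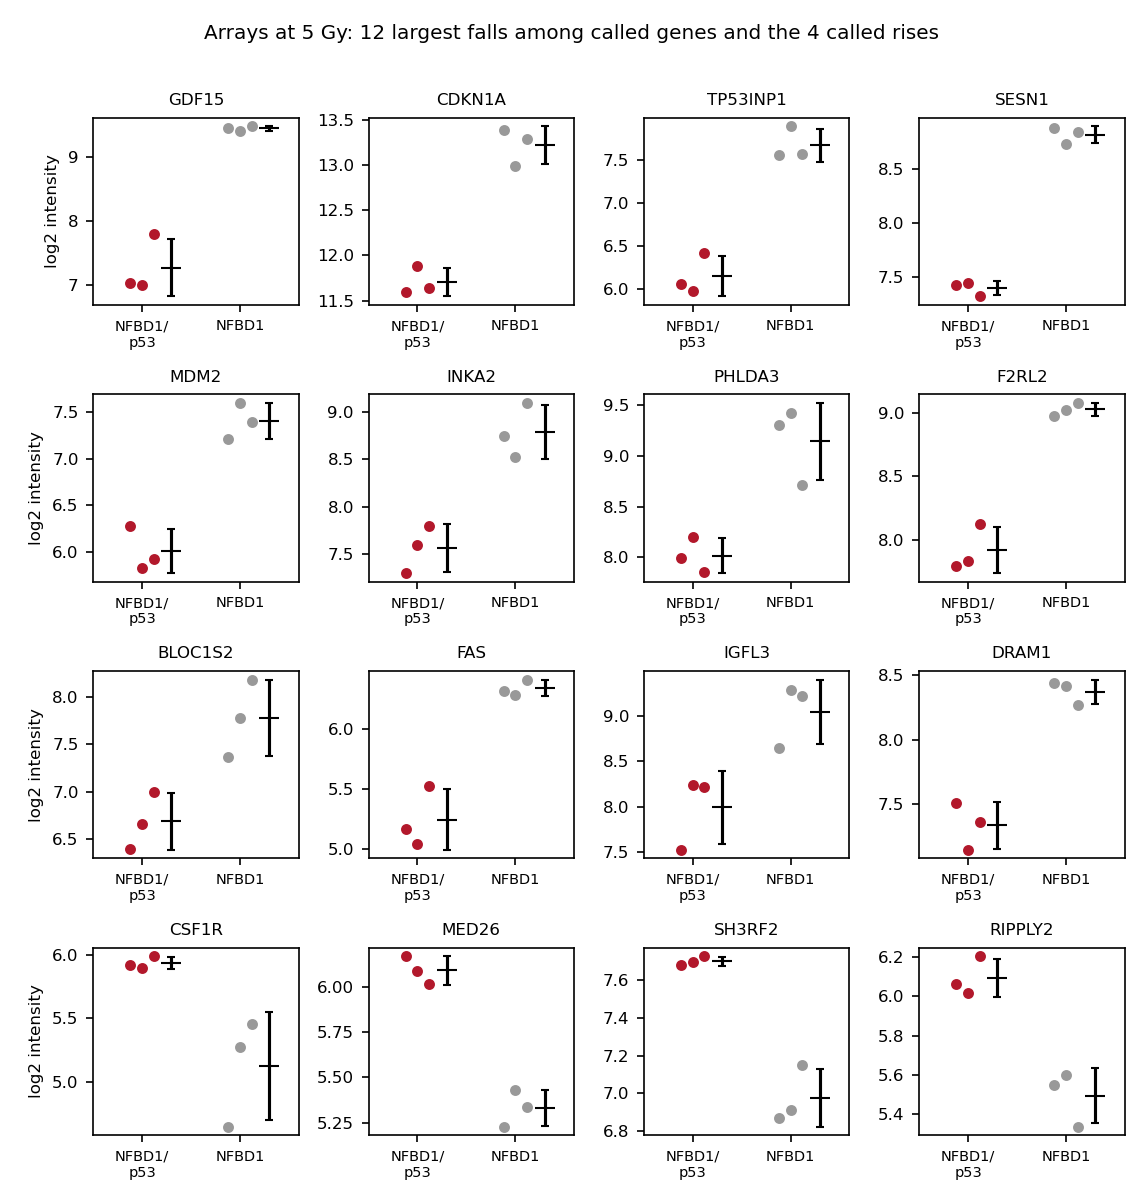
Log2 intensity of single arrays (points, replicates 1 to 3 in order) with the mean and SD (black) for the 12 largest falls among called genes and the 4 called rises, cells with both hairpins on the left and cells with the NFBD1 hairpin on the right of each panel, on axes that do not start at 0. The groups are apart in every panel, by the most in GDF15, where the arrays lie at 6.99 to 7.79 with both hairpins and at 9.41 to 9.48 with the NFBD1 hairpin.

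Among genes of cell cycle arrest, CDKN1A was the 1 call in 8 tested members. CDKN1A encodes p21, the inhibitor of cyclin-dependent kinases through which p53 holds cells in G1. It had 11.60, 11.89 and 11.63 with both hairpins and 13.39, 12.98 and 13.29 with the NFBD1 hairpin. The groups were well apart, and the fall was 2.86-fold (log2 difference -1.52 ± 0.18, adjusted p = 0.000127), with a further CDKN1A probe moving the same way. All 8 tested members of the list had a log2 difference below 0, with a median of -0.30, while 46.4% of all genes were below 0. GADD45A, a stress sensor linked to the G2 checkpoint, had 10.73, 10.84 and 10.77, against 11.52, 11.15 and 11.34. It did not pass without a block (log2 difference -0.56, limma adjusted p = 0.126). GADD45A was called with the replicate block (adjusted p = 0.0233) but not with the chip as a block, and is named here after its values were seen.

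Of 16 tested apoptosis genes, 3 were lower and 0 higher, with a median log2 difference of -0.38. FAS, a death receptor at the cell surface, had 5.17, 5.05 and 5.53 with both hairpins and 6.32, 6.29 and 6.41 with the NFBD1 hairpin. FAS was detected on all 6 arrays and the groups did not overlap (2.13-fold lower, adjusted p = 0.0165). On replicate 2 with both hairpins its 5.05 lay close to the lowest detected value of that array, 5.02. PIDD1, the scaffold that activates caspase-2, had 6.73, 6.97 and 6.80, against 7.57, 7.53 and 7.58 (1.66-fold lower). CYFIP2, a p53-inducible subunit of the WAVE actin regulator, had 9.03, 8.89 and 9.23, against 10.12, 9.50 and 10.25 (1.87-fold lower). BAX, which opens the outer mitochondrial membrane, and TNFRSF10B, the death receptor DR5, did not pass, with log2 differences of -0.66 and -0.61. With the replicate block they had adjusted p-values of 0.0131 and 0.00838, as named here after their values were seen. With the chip as a block BAX was called (adjusted p = 0.00154) and TNFRSF10B was not. TP53I11 had the highest value of the 6 p53 target lists, a log2 difference of 0.66, and was not called.

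For DNA repair and nucleotide supply, 4 of 9 tested members were lower and 0 higher. XPC and DDB2, which recognise lesions in nucleotide excision repair, fell 1.59-fold and 1.89-fold. DDB2 had 5.79, 6.07 and 6.03 with both hairpins and 7.02, 6.83 and 6.81 with the NFBD1 hairpin, and XPC had 8.64, 8.44 and 8.58, against 9.30, 9.06 and 9.31. RRM2B, the p53-inducible subunit of ribonucleotide reductase that supplies deoxynucleotides, had 8.99, 8.95 and 9.27, against 10.05, 9.96 and 10.07 (1.94-fold lower). RPS27L, a ribosomal protein paralog that stood on this list, had 13.21, 12.96 and 13.02, against 13.54, 13.61 and 13.85. Its fall was 1.52-fold (adjusted p = 0.0174). The RPS27L groups did not overlap, although replicate 1 with both hairpins came close to replicate 1 with the NFBD1 hairpin.

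Metabolic, redox and autophagy targets included the gene with the smallest p-value. SESN1, a sestrin that restrains the growth kinase complex mTORC1, had 7.42, 7.45 and 7.32 with both hairpins and 8.88, 8.73 and 8.84 with the NFBD1 hairpin. The fall was 2.68-fold (log2 difference -1.42 ± 0.11, adjusted p = 9.13e-08). SESN2, its paralog, had 5.98, 5.92 and 6.38, against 7.29, 6.70 and 6.94 (1.84-fold lower). TIGAR, a phosphatase that lowers glycolytic flux, had 9.81, 9.74 and 9.83, against 10.51, 10.64 and 10.78 (1.80-fold lower). DRAM1, a lysosomal membrane protein of autophagy, had 7.50, 7.14 and 7.35, against 8.44, 8.42 and 8.27 (2.06-fold lower). The other 2 calls were ACAD11, an acyl-CoA dehydrogenase (1.53-fold lower), and PANK1, the kinase of the first step of coenzyme A synthesis (1.52-fold lower, adjusted p = 0.0494). In all, 6 of 21 tested members were lower and 0 higher, with a median of -0.42.

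The signalling and secretion list had 6 of 42 tested members lower and 0 higher, with a median of -0.31. GDF15, a secreted stress cytokine of the TGF-beta family, had the largest fall of all genes tested, with 7.03, 6.99 and 7.79 with both hairpins and 9.46, 9.41 and 9.48 with the NFBD1 hairpin. Replicate 3 with both hairpins was higher than the other two but still far below every array of the NFBD1 shRNA group, and the fall was 4.55-fold (log2 difference -2.19 ± 0.24, adjusted p = 3.89e-05). INKA2, an inhibitor of the kinase PAK4, had 7.30, 7.59 and 7.80, against 8.74, 8.53 and 9.10 (2.35-fold lower). PHLDA3, which competes with AKT for membrane lipids, had 7.99, 8.20 and 7.86, against 9.30, 9.42 and 8.71 (2.19-fold lower). BLOC1S2, a subunit of a complex for lysosome-related organelles, had 6.40, 6.67 and 7.0, against 7.37, 7.78 and 8.18 (2.13-fold lower). TRIM22, an interferon-inducible antiviral protein, was 2.00-fold lower and NINJ1, which ruptures the plasma membrane of dying cells, was 1.56-fold lower.

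Over the 6 p53 target lists, 92 of 108 tested genes had a log2 difference below 0 and the median was -0.36. The lists name 129 genes, of which 125 had a named probe. The number lower was 33 with the replicate block and 32 with the chip as a block. A pair of chips held arrays of both groups (replicate 1 with both hairpins and replicate 2 with the NFBD1 hairpin on the one, both replicates 3 on the other), and the median over these 108 genes was -0.34 within the one and -0.35 within the other, with 1 array of each group on each. The lists were chosen with earlier results of these data known, and their medians are given as a description.

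**Figure D3:**
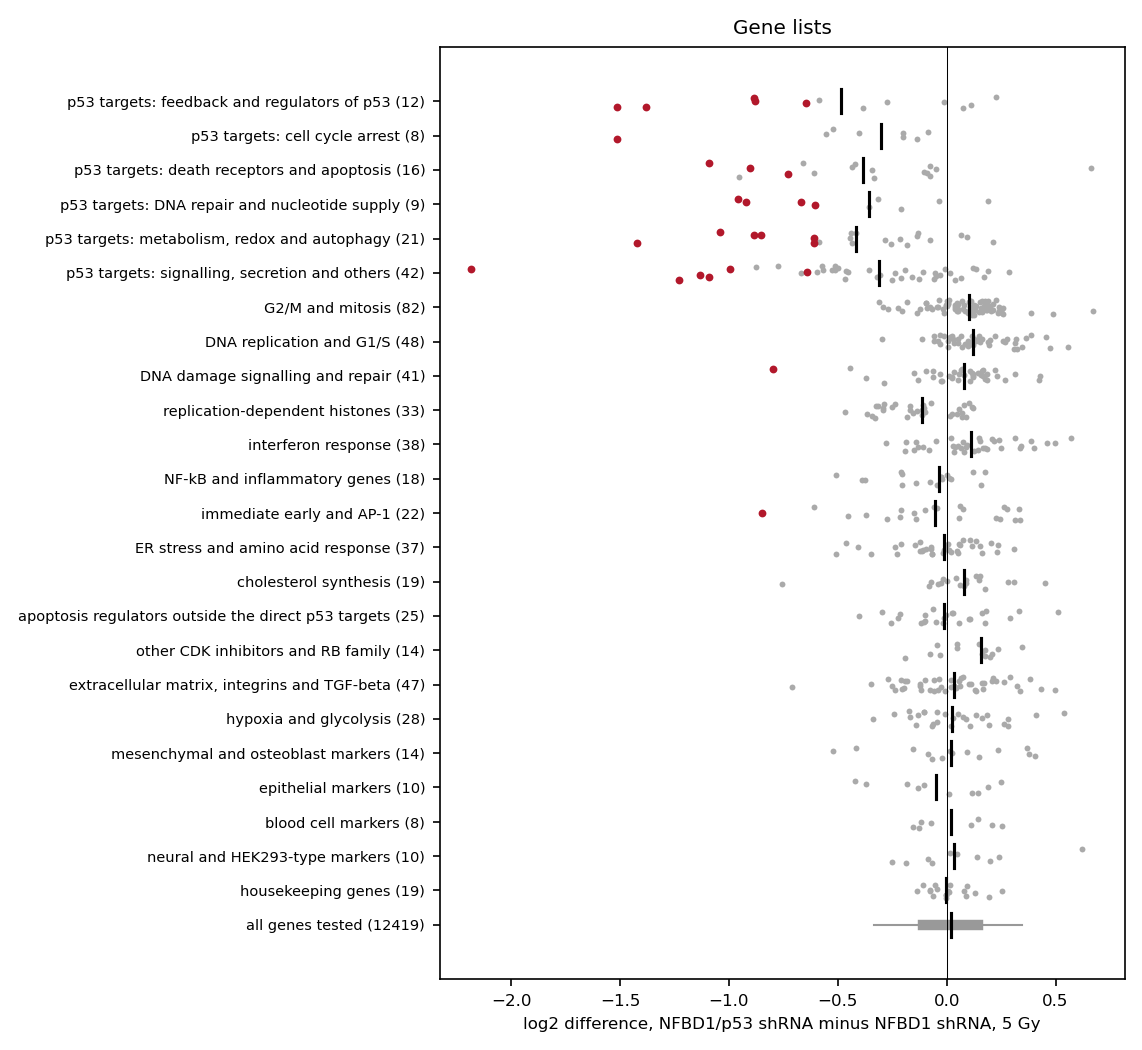
Log2 difference (NFBD1 and p53 shRNAs minus NFBD1 shRNA, 5 Gy) of each tested gene by list, with called genes in red, the list median as a black bar and the number tested in parentheses. The last row shows all 12419 genes as the median, the 25th to 75th percentiles (thick) and the 5th to 95th percentiles (thin). The 6 p53 target lists have medians of -0.49 to -0.30, and the other lists lie between -0.12 and 0.16.

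Outside the p53 target lists, 20 genes were lower. The clearest was F2RL2, the thrombin receptor PAR3, with 7.80, 7.83 and 8.12 with both hairpins and 8.98, 9.02 and 9.08 with the NFBD1 hairpin (2.16-fold lower, adjusted p = 1.85e-05). IGFL3, a secreted insulin growth factor-like protein, had 7.53, 8.24 and 8.22, against 8.64, 9.28 and 9.22 (2.08-fold lower). MSH6, a protein of DNA mismatch repair, was the only call in 41 tested genes of DNA damage signalling and repair. It had 11.35, 10.93 and 11.03, against 11.94, 11.81 and 11.96, a fall of 1.74-fold (log2 difference -0.80 ± 0.12, adjusted p = 0.00176). ATF3, a stress-induced transcription factor, was the only call in 22 tested immediate early genes, with 7.85, 7.81 and 8.13, against 8.59, 8.87 and 8.87 (1.80-fold lower, adjusted p = 0.02).

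The other 16 of these genes, the noncoding transcript LINC02875 among them, fell by 0.54 to 1.04 on the log2 scale and are named here after their values were seen. They include the membrane-anchored ubiquitin-like protein UBL3, the histone chaperone NAP1L2, the smooth muscle actin ACTA2, the cell adhesion receptor CXADR and the zinc finger protein PLAGL1. RAB1A and RAP2A are small GTPases, SKP1 and UBE2Z act in ubiquitin transfer, POLR1F is a subunit of RNA polymerase I, and TNFRSF14 is a receptor of the tumour necrosis factor family. PARD6G, CCDC85C, LRATD2 and MARF1 complete the set. UBL3 had 7.44, 7.22 and 7.43 with both hairpins and 8.42, 8.33 and 8.22 with the NFBD1 hairpin (1.94-fold lower, adjusted p = 0.000181). ACTA2 had 7.40, 7.28 and 7.87, against 8.33, 8.36 and 8.98 (2.05-fold lower, adjusted p = 0.0181). In both genes the arrays of the 2 groups were apart.

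The 4 higher genes were CSF1R, MED26, SH3RF2 and RIPPLY2. SH3RF2, a ring finger ubiquitin ligase, had 7.68, 7.70 and 7.73 with both hairpins and 6.87, 6.91 and 7.15 with the NFBD1 hairpin (1.65-fold higher, adjusted p = 0.00901). CSF1R, the receptor of macrophage colony-stimulating factor, had 5.92, 5.90 and 5.99, against 4.65, 5.27 and 5.46, and was detected on 2 of 3 arrays of the NFBD1 shRNA group (1.75-fold higher, adjusted p = 0.045). MED26, a Mediator subunit, had 6.17, 6.09 and 6.01, against 5.23, 5.43 and 5.34 (1.69-fold higher, adjusted p = 0.0453). RIPPLY2, a transcriptional corepressor of somite formation, had 6.06, 6.02 and 6.21, against 5.54, 5.60 and 5.33 (1.52-fold higher, adjusted p = 0.0294). The groups were apart in all 4 genes. Of 16 other settings SH3RF2 lost its call in 4, RIPPLY2 in 9 and MED26 in 11, and CSF1R lost it in 10 of the 15 settings that measured it. Among the falls, DDB2, PANK1 and POLR1F lost their call in 8 of 16 settings, and GDF15, CDKN1A, SESN1 and MDM2 in 0.

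Of 82 tested G2/M and mitosis genes, 0 were called without a block and 62 had a log2 difference above 0, with a median of 0.10. Of 48 DNA replication genes, 0 were called and 40 were above 0, with a median of 0.12. TPX2, which activates the mitotic kinase Aurora A, was nearest to a call, with 10.28, 10.14 and 10.16 with both hairpins and 9.21, 9.73 and 9.63 with the NFBD1 hairpin. The groups did not overlap (log2 difference 0.67 ± 0.15, adjusted p = 0.0573), and TPX2 was called with the replicate block (adjusted p = 0.0249) and with the chip as a block (adjusted p = 0.027). CEP55, which acts in the last step of cell division, had a log2 difference of 0.49 (adjusted p = 0.404), and POLD3, a subunit of DNA polymerase delta, had 0.56 (adjusted p = 0.386).

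Apart from MSH6 and ATF3, 0 members of the other lists were called without a block. Genes of DNA damage signalling and repair had a median of 0.08 and immediate early genes of -0.05. The replication-dependent histones had a median of -0.12 over 33 tested genes, with H4C11 at -0.47 and H4C2 at -0.33. The interferon list had 0.11 over 38 genes, with SAMD9 at 0.39. MX2 was detected on 2 arrays with both hairpins and on 0 of the NFBD1 shRNA group. It was called higher with a block for the chip (adjusted p = 0.0204) but not with the replicate block. NF-kB genes (18 tested), ER stress genes (37) and hypoxia genes (28) had medians of -0.03, -0.01 and 0.02, with RELB at -0.37, IL11 at -0.39, DDIT3 at -0.41, CEBPG at 0.31, PFKFB3 at 0.19 and SLC2A3 at -0.34. Cholesterol synthesis genes had a median of 0.08 over 19 genes. HMGCS1, the enzyme that makes HMG-CoA, had 10.96, 10.99 and 10.39 with both hairpins and 11.87, 11.56 and 11.18 with the NFBD1 hairpin. Replicate 3 was the lowest in both groups, which did not overlap, and the difference of -0.75 had an adjusted p of 0.358 without a block and of 0.000277 with the replicate block. FST, which binds activin in the extracellular matrix list, had a difference of -0.71 with adjusted p-values of 0.541 without a block and 0.00197 with the replicate block. With the chip as a block FST was not called.

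Other apoptosis regulators had a median of -0.01 over 25 tested genes, with the caspase CASP6 at 0.51 and the apoptosis inhibitor BIRC2 at -0.40. Other CDK inhibitors and RB family genes had 0.16 over 14 genes, with LIN9 at 0.34 and CCND3 at 0.17, and extracellular matrix genes had 0.03 over 47 genes, with SMAD3 at 0.34. Mesenchymal markers had 0.02 over 14 genes, with the cadherins CDH2 at 0.38 and CDH11 at -0.52, and epithelial markers had -0.05 over 10 genes. Of the epithelial factors, GRHL3 was not detected with both hairpins, and ELF3 differed by -0.37, but by 0.09 without replicate 1 of the cells with both hairpins. Blood cell markers (8 genes) and neural and HEK293-type markers (10 genes) had medians of 0.02 and 0.03. MAP2, a microtubule protein on the neural list, differed by 0.24, but by -0.03 when its probes were averaged, and ELAVL3 differed by -0.25. CD8A and MS4A1, markers of T and B cells, were detected on no array of the NFBD1 shRNA group. Housekeeping genes had a median of -0.002 over 19 genes, with TFRC at 0.26 and YWHAZ at 0.19.

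To ask whether the effect depended on NFBD1, it was set beside the p53 shRNA against the control shRNA at 5 Gy, a pair of groups that shares no array with the first. There 87 genes were called, 0.701% of those tested (75 lower, 0.604%, and 12 higher, 0.0966%). All 49 genes called in NFBD1-depleted cells had the same direction in cells without the NFBD1 hairpin, and 40 of them were called there too. SESN1 differed by -1.42 in NFBD1-depleted cells and by -1.35 in cells without the NFBD1 hairpin, GDF15 by -2.19 and -2.08, MDM2 by -1.38 and -1.43, and CDKN1A by -1.52 and -1.74. The p53 target lists had a median of -0.36 in NFBD1-depleted cells and of -0.40 in cells without the NFBD1 hairpin.

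The test of the difference between the 2 effects called 0 genes with limma, and 0 genes under every alternative tried. At an unadjusted p under 0.05 it had 248 genes (2%), and 442 genes with the replicate block. EPHX2, ZNF92 and CIMAP1D had the smallest p-values in that test, with differences between the effects of 1.04, -0.87 and 0.76, each with an adjusted p of 0.9998. EPHX2 and CIMAP1D were detected on 0 arrays of the NFBD1 shRNA group, so that their values there are bounds. For TPX2 the effect was 0.67 in NFBD1-depleted cells and -0.13 in cells without the NFBD1 hairpin, a difference of 0.80 ± 0.22 that did not pass (adjusted p = 0.9998). Across the 12419 genes the 2 effects had a Pearson correlation of 0.511 and a Spearman correlation of 0.429, given as a description since genes are not independent replicates. The standard error of the difference between effects was 0.15 for SESN1 and 0.34 for GDF15 on the log2 scale.

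**Figure D4:**
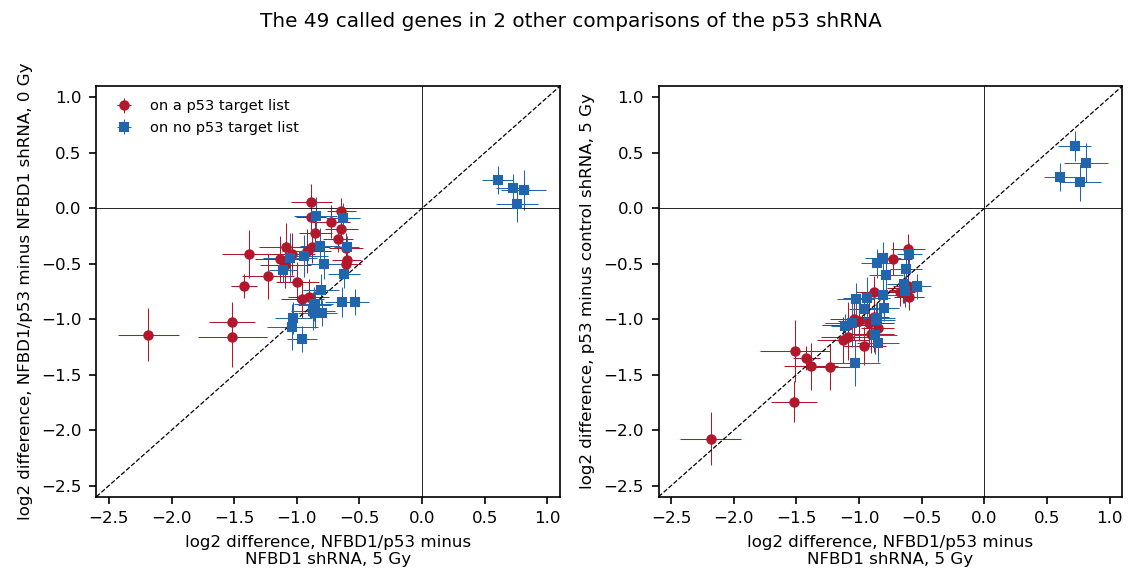
Log2 differences (with SE) of the 49 called genes at 5 Gy in NFBD1-depleted cells (horizontal axis) against the difference at 0 Gy in NFBD1-depleted cells (left panel) and at 5 Gy in cells without the NFBD1 hairpin (right panel), with the line of equal differences dashed. The points follow the line in the right panel, with 49 of 49 in the same direction, while in the left panel most p53-listed genes lie above it, as with GDF15 at -2.19 (5 Gy) and -1.14 (0 Gy).

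To ask whether the effect depended on irradiation, it was set beside the same pair of hairpins at 0 Gy, where 19 genes were called, all lower (0.153% of those tested). Of the 49 genes, 48 had the same direction at 0 Gy and 13 were called there. The exception was SESN2, with 0.06 at 0 Gy against -0.88 at 5 Gy. In NFBD1-depleted cells PPM1D differed by -0.88 at 5 Gy and by -0.08 at 0 Gy, TRIAP1 by -0.65 and -0.03, FAS by -1.09 and -0.35, MDM2 by -1.38 and -0.42, and GDF15 by -2.19 and -1.14. All 25 p53-listed calls had a larger fall at 5 Gy. They were called at 5 Gy, which favours that order. Of all 108 tested p53-listed genes, 83 had a difference by dose below 0, with a median of -0.19. Over all genes the share was 45.5% and the median 0.022. These values are a description, since the lists were chosen with earlier results of these data known.

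The test of the difference by dose called 0 genes with limma. At an unadjusted p under 0.05 it had 359 genes (2.89%), and 654 genes with the replicate block. SESN1, PPM1D and LRRN1 had the smallest p-values, with differences of -0.72 ± 0.15, -0.81 ± 0.17 and 0.76 ± 0.17, and adjusted p-values of 0.666, 0.666 and 0.845. With the authors' processed values SESN1 was called in this test (-0.58, adjusted p = 0.00126). LRRN1 is a neuronal leucine-rich repeat protein whose difference was 0.08 at 5 Gy and -0.68 at 0 Gy. SESN1 averaged 6.93 with both hairpins and 7.64 with the NFBD1 hairpin at 0 Gy, and 7.40 and 8.82 at 5 Gy.

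Some genes were lower at both doses. Of the 20 lower genes outside the p53 target lists, 12 had a larger fall at 5 Gy and 8 at 0 Gy. The 8 were UBL3, MSH6, RAB1A, CXADR, CCDC85C, ACTA2, MARF1 and POLR1F, and each was called at 0 Gy too. UBL3 averaged 7.19 ± 0.19 with both hairpins and 8.37 ± 0.10 with the NFBD1 hairpin at 0 Gy, and 7.37 ± 0.12 and 8.32 ± 0.10 at 5 Gy (SD, n = 3 each). MSH6 averaged 11.20 and 12.15 at 0 Gy, and 11.11 and 11.90 at 5 Gy. The difference by dose was 0.22 ± 0.17 for UBL3 and 0.15 ± 0.17 for MSH6 (SE), neither called. In cells without the NFBD1 hairpin at 5 Gy, MSH6 averaged 11.12 with the p53 shRNA and 12.01 with the control shRNA, and UBL3 averaged 7.29 and 8.20. Genes called in all 3 comparisons numbered 11, namely SESN1, CDKN1A, UBL3, NAP1L2, MSH6, CXADR, PLAGL1, CCDC85C, ACTA2, MARF1 and POLR1F. These comparisons share the p53 hairpin, and a loss of p53 and another effect of the hairpin on these genes cannot be told apart.

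**Figure D5:**
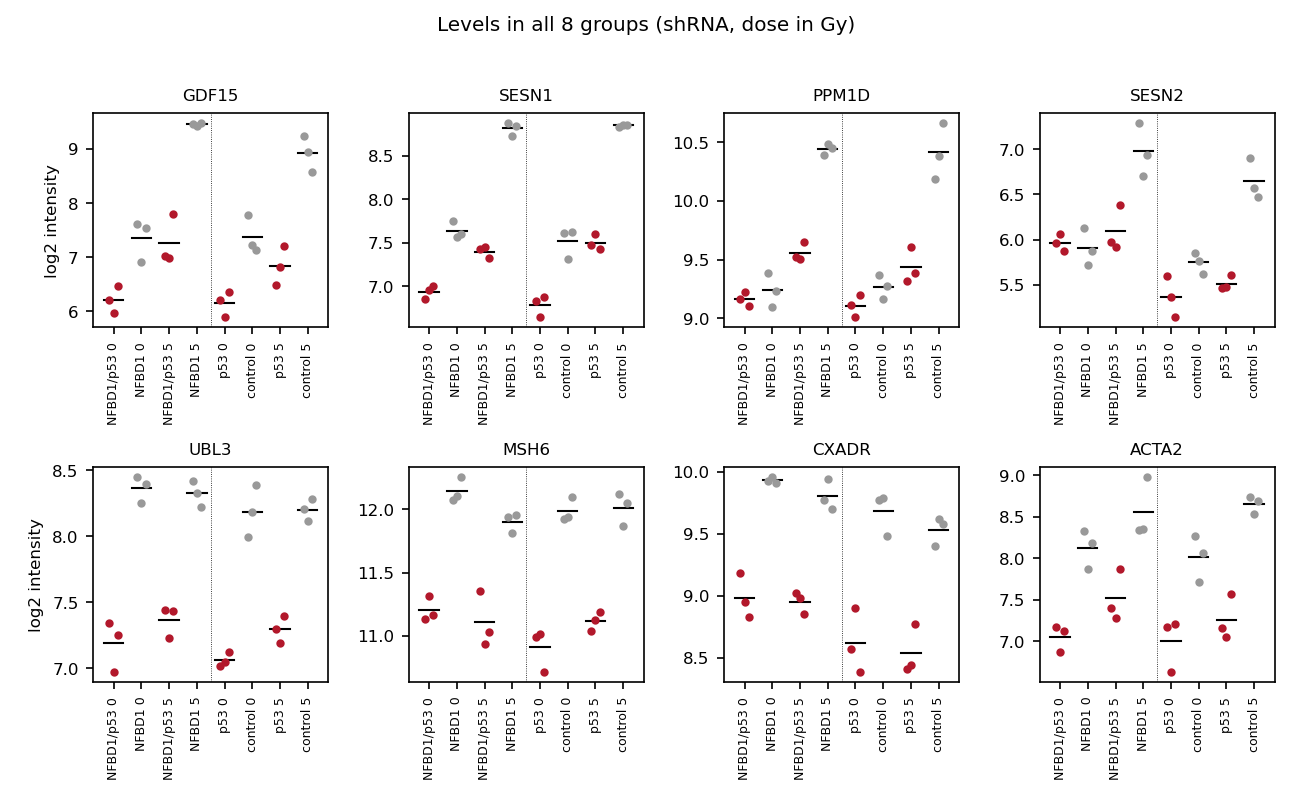
Log2 intensity of single arrays (points, p53 shRNA groups in red) and group means (bars) in the 8 groups for 8 genes, with NFBD1-depleted cells left and cells without the NFBD1 hairpin right of the dotted line, on axes that do not start at 0. GDF15, SESN1, PPM1D and SESN2 are highest in the irradiated groups without the p53 shRNA, at group means of 9.45, 8.82, 10.44 and 6.98 in cells with the NFBD1 hairpin, and UBL3, MSH6, CXADR and ACTA2 are lower in the p53 shRNA groups at both doses.

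Promoter windows from RefSeq (assembly GRCh38.p14, 250 bases before to 50 after the start site) were found for 20 of the 25 p53-listed lower genes and 17 of the 20 others. The 10-base decamer of the p53 consensus was searched on both strands, allowing the usual purine and pyrimidine positions, and a full site was taken as a pair of decamers with at most 13 bases between them. A decamer was present in 1 of the 20 p53-listed windows (5%), in 2 of the 17 others (11.8%) and in 5.28% of the windows of all genes tested. A full site was in 0 of these 37 windows and in 3 windows of all genes tested (0.0297%). A full site was so rare in this search that the 0 says little about these genes. Bases farther upstream or farther into the gene were not searched, so sites there would be missed. Sites with a mismatch to the decamer pattern would be missed too. The motif TTTGAA, known as the cell cycle homology region of mitotic promoters, was in 47 of 68 G2/M windows (69.1%), in 3 of the 20 p53-listed lower windows (15%) and in 10.4% of the windows of all genes tested. A match is a description of the letters, and binding was not measured.

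The decamers lay in RPS27L (59 bases before the start site), in ACTA2 (219 before and 20 after) and in F2RL2 (20 after). RPS27L is shown as the p53-listed gene with a match, and ACTA2 with FAS because these called genes are neighbours on chromosome 10. Their start sites are 539 bases apart on opposite strands, with 0 protein-coding genes between them. Each start site lies downstream of the other, so that the genes overlap there. At 5 Gy FAS fell by 1.09 and ACTA2 by 1.04 on the log2 scale. In NFBD1-depleted cells at 0 Gy FAS differed by -0.35 (not called) and ACTA2 by -1.07 (called). Each run below is the 250 bases before the start site, 5′ to 3′ on the strand of the gene, with decamers in capitals: RPS27L at chr15:63157478-63157727 (minus strand), FAS at chr10:88990548-88990797 (plus strand) and ACTA2 at chr10:88991338-88991587 (minus strand).
RPS27L: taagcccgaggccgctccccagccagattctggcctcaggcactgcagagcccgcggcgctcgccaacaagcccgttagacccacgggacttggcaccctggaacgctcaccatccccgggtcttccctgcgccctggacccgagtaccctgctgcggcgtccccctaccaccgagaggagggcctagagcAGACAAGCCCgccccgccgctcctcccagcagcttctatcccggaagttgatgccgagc
FAS: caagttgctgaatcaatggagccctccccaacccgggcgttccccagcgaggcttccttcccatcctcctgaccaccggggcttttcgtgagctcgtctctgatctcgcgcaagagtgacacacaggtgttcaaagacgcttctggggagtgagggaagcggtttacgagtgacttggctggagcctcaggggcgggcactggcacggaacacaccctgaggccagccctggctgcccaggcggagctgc
ACTA2: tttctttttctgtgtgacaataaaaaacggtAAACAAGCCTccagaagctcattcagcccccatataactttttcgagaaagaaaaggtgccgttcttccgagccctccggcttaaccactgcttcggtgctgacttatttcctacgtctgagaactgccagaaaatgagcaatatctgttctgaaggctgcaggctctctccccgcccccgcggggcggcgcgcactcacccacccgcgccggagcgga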

How the data were processed

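Probe intensity, averaged over beads, was deposited for all arrays in 1 table, with no background subtraction or normalization per the file headers and the values. Beside each intensity the authors deposited a detection p-value, a comparison with negative controls per the file headers. Another 60 per-array columns were not used. A second file that the authors deposited holds processed values that look like log2 intensities and served as an alternative. They ranked probes as the signal did (Spearman 1), had a median of 6.951 on every array, were not centred on 0 and ran the same way, and what was done to low signals is unknown. The scanner software is not given in the sources used here.

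The platform annotation gives 27577 of the 48802 probes 1 gene symbol, which were the probes used, gives 13 more than 1, and leaves 21212 unnamed. Current symbols came from the RefSeq gene table (GRCh38.p14, 27540 probes matched). Intensities of the 24 arrays of the first experiment were corrected for background, normalized by quantiles and log2-transformed by neqc of limma 3.58.1 in R 4.3.3 (offset 16). Probes detected (p under 0.01) on 3 or more of the 24 arrays were kept (21568, of which 16607 named), and the brightest kept probe by mean stood for its gene. Precision is limited by the 3 arrays per group. Group means were fitted with lmFit and eBayes over all 8 groups (16 residual degrees of freedom), and genes were called at a Benjamini-Hochberg adjusted p under 0.05 over all 12419 genes.

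Sample titles gave the groups and replicate numbers, and array labels gave the chips. Same-numbered arrays of the 2 groups deviated together (correlations of 0.31, 0.28 and 0.59, the last pair on the same chip). Differently numbered arrays had correlations of -0.39 to 0.13. The numbers were taken to pair the arrays, and blocked values are given. Calls, folds and adjusted p-values are from the fit without a block unless a block is named. Genes were named by a rule: MDC1, among called genes without overlap up to 12 with the largest rise and 12 with the largest fall, all called p53 targets, up to 4 called members or 2 uncalled members of each other list, and the 3 smallest p-values of an interaction with no call. The comparison, the 24 lists (758 genes) and the rule were chosen with earlier results of these data known. The transcript of p53 was not analysed here. Alternatives were the blocks, the authors' values, other background corrections and offsets, other detection filters, the mean of a gene's probes, the compared arrays alone and leaving out each array. A filter over all 30 arrays was added after seeing the data.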

Additional observations from a re-analysis of the deposited data

Results flagged for a closer look

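In EPHX2, an epoxide hydrolase, every array with both hairpins lay above every array with the NFBD1 hairpin at 5 Gy, while every array with the p53 shRNA alone lay below every control array. EPHX2 had log2 intensities of 5.06, 5.20 and 5.35 with both hairpins, against 4.90, 4.85 and 4.84 with the NFBD1 hairpin, and 4.86, 4.68 and 4.61 with the p53 shRNA, against 5.39, 5.39 and 5.47 with the control shRNA. The difference between the 2 effects was 1.045 and did not pass (limma adjusted p = 0.9998), and the probe was detected on 0 arrays of the NFBD1 shRNA and of the p53 shRNA groups. CIMAP1D moved in opposite ways likewise, with a difference between the effects of 0.756 (adjusted p = 0.9998), and was detected on 2 arrays with both hairpins and on 0 with the NFBD1 hairpin. Both were among the 3 smallest p-values of that test, and 86 called or named genes were looked at for such a pattern.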

How the results depend on the processing

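With the replicate block 124 genes were called (34 higher, 90 lower), with a block for the chip 108 (27 and 81), and in a fit of the 6 compared arrays alone 5 (0 and 5, each on a p53 target list), where 4 residual degrees of freedom remained of 16. Genes called higher numbered 2 with no detection filter and 10 with the mean of a gene's probes. Leaving out 1 array, the calls ranged from 18 to 45, those higher from 0 to 5, those lower from 18 to 40, and the p53-listed lower genes from 11 to 21. The cause of these changes was not tested. The other settings called 47 to 60 genes. SESN1, GDF15, CDKN1A and MDM2 were called in all 16. CXADR, F2RL2, INKA2, MSH6, NAP1L2, PPM1D, RAB1A, SKP1, TIGAR and UBL3 lost their call with the 6 arrays alone and in no other setting. The least stable falls were DDB2, PANK1 and POLR1F, which lost their call in 8 settings, and MARF1 and PIDD1, in 7. FAS, LINC02875, NINJ1 and UBE2Z lost it in 6. DDB2 lost it whichever array of the compared groups was left out.

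The G2/M list had 1 member called, TPX2, with a block for the chip, the replicate block, the authors' values, quantile normalization without background correction, an offset of 50, detection on all 6 arrays and the mean of probes. The difference by dose called 1 gene, SESN1, with the authors' values, and 0 otherwise. ELF3 ranged from -0.689 without replicate 2 to 0.0862 without replicate 1 of the cells with both hairpins, and MAP2 turned to -0.0318 with the mean of probes (adjusted p = 0.961). Probes that were not detected give bounds more than levels.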

Other observations

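Some large differences missed the threshold without a block but passed it with the replicate block, and are given here as values, chosen after they were seen. The chemokine genes CCL3 and CCL3L3, near-identical copies whose probes may read each other's transcripts, had log2 differences of -1.71 ± 0.56 and -1.71 ± 0.51 (SE, limma adjusted p = 0.346 and 0.263) in NFBD1-depleted cells at 5 Gy. In cells without the NFBD1 hairpin at 5 Gy they differed by -1.63 and -1.48. The noncoding transcript LINC01173 differed by -1.09 ± 0.25 (adjusted p = 0.0573), SUGCT by -1.16 ± 0.32 (adjusted p = 0.174) and TSPAN13 by -1.09 ± 0.26 (adjusted p = 0.0944), and in cells without the NFBD1 hairpin they differed by -1.18, -1.36 and -0.91. With the replicate block the adjusted p-values were 3.29e-05 for CCL3, 0.00197 for CCL3L3, 8.02e-05 for LINC01173, 0.000256 for SUGCT and 0.000517 for TSPAN13. With a block for the chip they were 0.00142, 0.0307, 0.012, 0.018 and 0.000313 in the same order.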
